A study of Mus musculus with 12 samples.

Results

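The Homer, Shank and Dlgap families are the layered scaffold of the excitatory postsynapse, and their 10 genes (Homer1, Homer2, Homer3, Shank1, Shank2, Shank3, Dlgap1, Dlgap2, Dlgap3 and Dlgap4) were chosen by name from the 41091 gene IDs that both count tables list. All 10 had counts in every library, between 1393 and 41578, and all passed the filter on low counts in every comparison. After LTP induction Homer1 was higher than control at both time points, by 0.41 on the log2 scale at 1 hr and by 0.80 at 3 hr, and Shank1 was higher at 3 hr, by 0.68. No other member passed the test at either time point. Between the time points 3 members were called higher at 3 hr in control slices, where 16.1% of all genes were, and 7 in LTP slices, where 18.6% were. With offsets for the GC content and length of the genes 7 of these 10 calls were lost and others were gained (Homer1 higher, and Homer3 and Dlgap1 lower, in controls, and Dlgap1 lower in LTP slices), which left 3 and 4 members called.

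Dlgap proteins (also called SAPAP or GKAP) bind the guanylate kinase domain of PSD-95 just under the membrane. The carboxyl end of each Dlgap protein docks on the PDZ domain of a Shank protein, and Shank proteins in turn bind Homer, so that the families link PSD-95 with its receptors to the deeper layer of the postsynaptic density. Homer proteins carry an EVH1 domain that grips proline-rich ligands such as metabotropic glutamate receptors, IP3 receptors and Shank, and their coiled coils join them into tetramers. Homer1 also makes a short isoform, Homer1a, known from work on hippocampus as an activity-induced transcript that ends within an intron. It keeps the EVH1 domain, lacks the coiled coil and loosens the links that the long isoforms make. Several Shank mRNAs are found in dendrites as well as in cell bodies.

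The libraries were total RNA of acute hippocampal mini-slices, with the dentate gyrus trimmed, from wild-type male C57BL/6 mice of 2 to 3 months. LTP slices were perfused over 10 min with 50 uM forskolin, which activates adenylyl cyclase, and the medium also held 30 mM KCl and 10 mM calcium after the first 5 min. Control slices of the same animals received 0.2% DMSO for 10 min. Both were frozen 1 hr or 3 hr later, which gave 4 groups (LTP and control at 1 hr, LTP and control at 3 hr) of 3 libraries. Each library came from several slices of 1 animal, and the animals of the time points were taken to differ. The slices hold all cell types of the region, so more RNA per cell and more cells of a type cannot be told apart here. According to the study's methods, libraries were made only from samples in which qPCR had shown higher Arc, a higher short Homer1 isoform and an unaltered long one. The LTP effect on Homer1 and Arc is therefore not independent of how the samples were chosen.

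Library totals lay between 37118382 and 50815001 counts, so the lowest member count carried a counting error of 2.68% and the spread between libraries set the precision. Arc, an activity-induced gene, was at 131 to 221 CPM (CPM is the count scaled by TMM to a common library size) in the control libraries and at 504 to 592 CPM in the LTP libraries of both time points. The study set 1 hr control 2 aside as an outlier, and it enters no comparison here unless stated. GC-rich genes stood apart by library. The median log2 CPM, relative to each gene's mean over the libraries, of the 10% of genes richest in GC minus that of the 10% poorest in GC (the GC measure) ran from -0.55 to -0.23 in the 5 fitted 1 hr libraries and from -0.01 to 0.45 at 3 hr, and it was 0.15 in 1 hr control 2. All markers of the 7 cell types checked were above 0 in every library. The dentate granule cell gene Prox1 was still present, at 45.9 to 79.8 CPM.

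Homer1 lies on the + strand of chromosome 13 (GRCm38, 93299635 to 93405129) and has 12 annotated transcripts. Homer1-204 ends at 93360462, inside an intron of the long transcripts, whose last exon starts at 93402041. It alone holds 4383 bases, 36.6% of the exonic length of 11976 bases, so a gene count of Homer1 cannot separate short and long forms. The study's text says that its expression analysis used reads in coding regions, which most of these bases are not, whereas the tables list non-coding genes too, so how far the short form's own end is counted is not known. The 250 bases before a Homer1 start site are shown because Homer1 was the member that was higher at both time points and because forskolin raises cAMP. Capitals mark TGACG, the core of the cAMP response element, which was searched with its complement CGTCA on both strands (chr13:93303507-93303756, + strand, RefSeq sequence on GRCm38.p6):
Homer1 promoter: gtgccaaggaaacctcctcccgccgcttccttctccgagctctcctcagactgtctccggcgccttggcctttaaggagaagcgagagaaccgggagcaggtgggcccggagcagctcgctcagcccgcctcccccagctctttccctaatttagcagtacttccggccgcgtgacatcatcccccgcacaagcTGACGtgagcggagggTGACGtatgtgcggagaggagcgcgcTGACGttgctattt

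The 3 matches begin 56, 40 and 14 bases before the start site. Over the 300 bases of a RefSeq promoter window, 20.81% of 32851 windows held TGACG at least 1 time and 1.03% held it 3 times or more. The full palindrome TGACGTCA, which contains TGACG, was in 1.79% of windows and in no window of the 7 members with an entry. Homer1 has another RefSeq window (chr13:93307784-93308083), which held no TGACG on either strand. Among those 7 members, the only other match was 1 in Dlgap4, 23 bases after its start. A match of letters is a description and not a bound site.

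The ends of the Dlgap coding sequences are shown because this end is the piece that joins the Dlgap and Shank layers. Each line gives the last 18 coding bases before the stop codon, with the last 4 codons in capitals (GRCm38 and GENCODE M21, all on the + strand, chr17:70818214-70818231, chr8:14846688-14846705, chr4:127236348-127236365 and chr2:156762883-156762900 in the order shown):
Dlgap1: gaggcgCAGACCCGGCTC
Dlgap2: gaggccCAGACGCGGCTC
Dlgap3: gaggccCAGACCAGGCTG
Dlgap4: gaggccCAGACCAGGCTC

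The 4 ends differ from each other at 1 to 3 of 18 bases, whereas the whole coding sequences of the 4 genes share 63.9% to 67.2% of aligned bases. Coding identity was 60.5% to 61.2% among the 3 Homer genes and 63.4% to 64.3% among the 3 Shank genes, and the longest identical run between any pair of members of a family was 26 bases, so a longer read holds a difference between them. Another overlap matters more for Homer3 (chromosome 8, 70282827 to 70294361), since 25.41% of its exonic bases also lie in exons of Ddx49, a gene on the other strand, and whether counting used strand is not stated. For the other members this share was at most 4.16%.

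Levels were compared between genes only per kilobase of exons. In 1 hr controls 1 and 3 Dlgap1 was highest (41.7 CPM per kilobase), then Homer1 (34.3), Dlgap3 (26.2) and Homer3 (15.2), and libraries of neighbours in this order did not overlap. The other 6 members, among them all 3 Shanks, lay between 10.5 and 11 CPM per kilobase, and each overlapped its neighbour. With control 2 the ranges of Homer1 and Dlgap3 overlapped too. In 3 hr controls Dlgap3 (40.0), Dlgap1 (35.7) and Homer1 (35.6) led, with overlapping ranges. In 3 hr LTP slices Homer1 led with 61.7 ± 13.1 CPM per kilobase (SD, n = 3), overlapping the range of Dlgap3 (41.3 ± 11.9), while Homer2 was last with 11.1 ± 1.53. Its range of 9.34 to 12.1 lay below that of Homer3, the next in order, and overlapped those of Shank2 and Dlgap4. Over all 12 libraries the mean level of Homer1, Dlgap1 and Dlgap3 was above that of 93.0% to 94.8% of genes, and that of the other 7 above 75.5% to 82.5%. The order rests on the length used. With the longest transcript in place of all exons, Dlgap1 (97.8) came before Homer1 (91.8), and Dlgap4 rose from 12.8 to 22.4 CPM per kilobase.

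**Figure D1:**
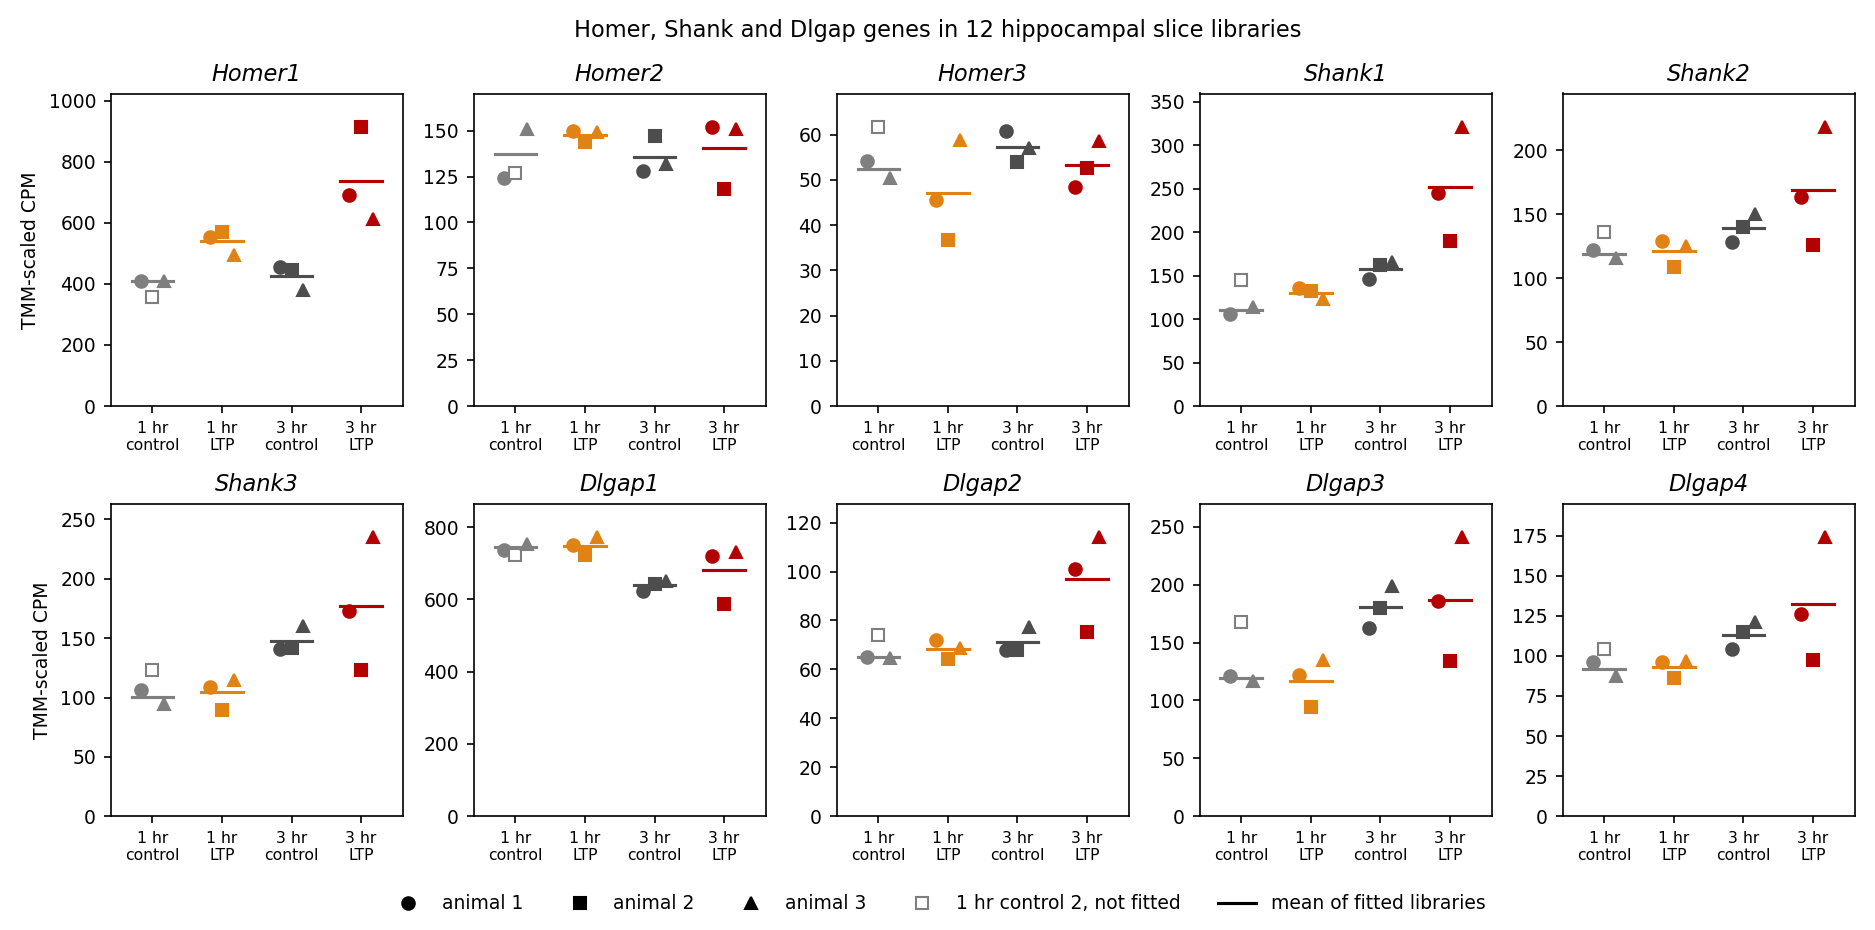
TMM-scaled CPM of the 10 genes (y axes, from 0, one scale per gene) in the 12 libraries by group, with symbols for animals, an open square for 1 hr control 2, which was not fitted, and bars for the mean of the fitted libraries. Homer1 and Shank1 are the members whose LTP libraries lie above all fitted control libraries of their time point, and 3 hr LTP libraries 2 (square) and 3 (triangle) lie at opposite ends for most members.

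LTP and control slices were first compared at 1 hr. Homer1 was at 411 and 409 CPM in controls 1 and 3, and at 555, 569 and 495 CPM in LTP libraries 1, 2 and 3. All LTP libraries lay above the controls, and control 2, left out of the fit, was lower still at 356 CPM. The log2 fold change was 0.41 (SE 0.0733, adjusted p = 0.0155, edgeR quasi-likelihood test), a fold of 1.32. Within animals 1, 2 and 3 the LTP to control ratio was 1.35, 1.60 (against control 2) and 1.21. Homer1 was the 1 of 10 members called higher (adjusted p under 0.1 and fold change over 1.2), where 0.778% of 17736 genes were called higher, 0.0113% lower, and no member was called lower (0 lower at an unadjusted p under 0.05). With the animal block and the GC content and length offsets together, 248 genes were higher and 68 lower, against 138 and 2 here. The Homer1 call was lost in 4 of 18 alternatives, namely without control 1 (adjusted p = 0.285), without control 3 (0.279), without LTP 1 (0.119) and in 1 model of the 4 groups (0.432), with log2 fold changes of 0.39 to 0.41. Without control 1 or 3 the control arm is 1 library, which is assumed to vary like the LTP libraries.

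Shank1, the scaffold that with its family forms the middle layer, did not pass at 1 hr. Its controls 1 and 3 were at 106 and 114 CPM and its LTP libraries at 136, 132 and 123 CPM, which do not overlap, and its log2 fold change was 0.25 (SE 0.0725, unadjusted p = 0.00375, adjusted p = 0.267, edgeR quasi-likelihood test). In control 2, however, Shank1 was at 145 CPM, above every LTP library, and the fit with that library gave 0.11 (adjusted p = 0.807, edgeR). It passed only without LTP 3 (0.29, adjusted p = 0.0673). Homer1 and Shank1 were the 2 of 10 members whose LTP libraries lay entirely above the fitted controls, as did 10.6% of all genes.

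The other 8 members had log2 fold changes between -0.14 (Homer3, SE 0.136) and 0.12 (Homer2, SE 0.0799) at 1 hr, with adjusted p of at least 0.900. Homer3, the member enriched in cerebellum, ranged from 36.7 to 58.8 CPM in LTP libraries and was at 54.1 and 50.5 CPM in controls. Dlgap1, the family member at the highest level, was among the most even, at 738 and 752 CPM in controls and 751, 723 and 772 CPM after LTP (log2 fold change 0.02, SE 0.0623). The median of the 10 members was 0.05, where that of all genes was -0.001.

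At 3 hr the same comparison had 6 libraries. Homer1 was at 455, 446 and 380 CPM in controls 1, 2 and 3 and at 691, 914 and 611 CPM in the LTP libraries. All LTP libraries were again above all controls, with LTP 2 far above the other two. The log2 fold change was 0.80 (SE 0.14, adjusted p = 0.0212, edgeR quasi-likelihood test), a fold of 1.75, and the ratios within animals were 1.52, 2.05 and 1.61. The call held in all 17 alternatives, where the log2 fold change ran from 0.63 to 0.92 and the adjusted p reached 0.0981 at most.

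Shank1 rose at 3 hr from 146, 162 and 166 CPM in controls to 245, 190 and 321 CPM in LTP libraries 1, 2 and 3. Here LTP 3 was highest and LTP 2 lowest, the reverse of their order for Homer1. The log2 fold change was 0.68 (SE 0.161, adjusted p = 0.0564, edgeR quasi-likelihood test), a fold of 1.61, with ratios within animals of 1.67, 1.17 and 1.94. With offsets for GC content and length it was 0.65 (SE 0.0728, adjusted p = 0.00132), and it passed in 13 of 17 alternatives. Leaving out 1 of controls 1, 2 or 3 or LTP 1 took the adjusted p to 0.209, 0.206, 0.147 and 0.165, with log2 fold changes of 0.63 to 0.73. The value moved most with LTP 3 left out (0.46) or LTP 2 left out (0.86).

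Dlgap2 stood next to the threshold at 3 hr. It was at 68.1, 67.9 and 77.3 CPM in controls and at 101, 75.4 and 114 CPM after LTP, so that LTP 2 fell among the controls. Its log2 fold change was 0.46 (SE 0.136, unadjusted p = 0.00869, adjusted p = 0.106, edgeR quasi-likelihood test). With animal as a block, which pairs the slices of each animal, it passed (0.44, SE 0.0864, adjusted p = 0.0262), as it did in 9 of 17 alternatives in all, among them DESeq2 (adjusted p = 0.021) and the GC content and length offsets (0.0229). Within animals the ratio was 1.48, 1.11 and 1.48.

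At 3 hr 2 of 10 members were called higher and 0 lower (0 lower at an unadjusted p under 0.05), where 5.07% of 17508 genes were called higher and 1.53% lower. The same 2 members, Homer1 and Shank1, had LTP libraries entirely above the controls, as had 12.9% of all genes. With the GC content and length offsets 961 genes were higher and 562 lower, against 888 and 267 without them, and Homer1, Shank1 and Dlgap2 were the members called. The median of the 10 members was 0.26 against -0.002 for all genes, and 9 of 10 were above 0, as were 49.5% of all genes.

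**Figure D2:**
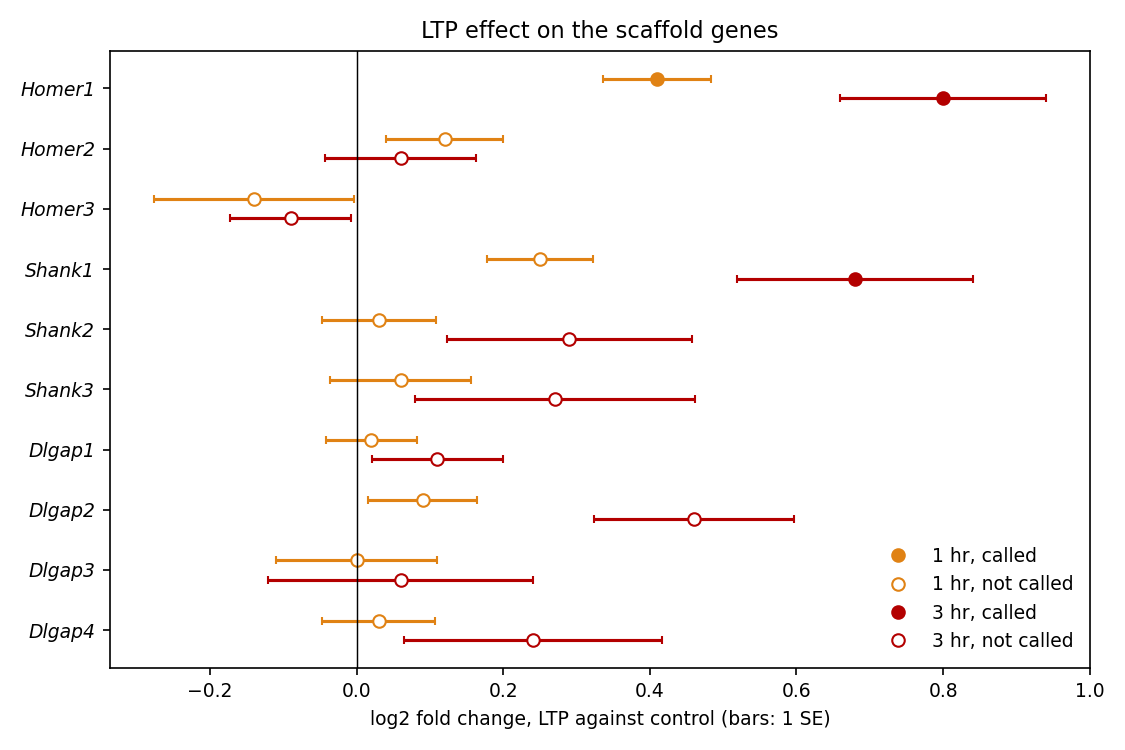
Log2 fold change of LTP against control (x axis, bars of 1 SE) for the 10 genes at 1 hr (orange) and 3 hr (red), with filled points for members called. Homer1 is filled at 1 hr (0.41) and 3 hr (0.80) and Shank1 at 3 hr (0.68), and 3 hr bars are wider than 1 hr bars for the Shank and Dlgap genes.

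The other Shanks and Dlgaps had values with wide errors at 3 hr. Shank2 was at 128, 140 and 150 CPM in controls and at 163, 126 and 218 CPM in LTP libraries (log2 fold change 0.29, SE 0.167, adjusted p = 0.366, edgeR). Shank3, the gene deleted in Phelan-McDermid syndrome, was at 141, 142 and 160 CPM and at 173, 123 and 235 CPM (0.27, SE 0.191, adjusted p = 0.461, edgeR). For both, LTP 1 and LTP 3 lay above all controls and LTP 2 below them. Dlgap3, whose loss in mice causes excessive grooming, had the same pattern except that LTP 1, at 186 CPM, fell within the control range of 163 to 199 CPM (0.06, SE 0.181). Dlgap4 was at 104, 115 and 121 CPM in controls and at 126, 97.2 and 174 CPM after LTP (0.24, SE 0.176). Dlgap1 (0.11), Homer2 (0.06) and Homer3 (-0.09) were nearer to 0.

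These values turned on which LTP library was included. Without LTP 2, 6 members were called, namely Homer1, Shank1, Shank2 (0.47), Shank3 (0.48), Dlgap2 (0.61) and Dlgap4 (0.43), and calls rose over all genes too, with 9.32% called higher against 5.07% with all libraries. Without LTP 3, Shank2 (0.06), Shank3 (0.01) and Dlgap4 (-0.01) were near 0 and only Homer1 (0.92) and Shank1 (0.46) were called, where 4.68% of genes were called higher. The GC measure was -0.01 in LTP 2 and 0.45 in LTP 3, the lowest and the highest of the 3 hr libraries, and 0.23 in LTP 1. The summed level of the 5 excitatory neuron markers was 3430, 2700 and 4160 CPM in LTP libraries 1, 2 and 3 and lay between 3010 and 3140 CPM in the 3 hr controls, and 1 of these 5 markers was called higher. The part of either in the members' values was not tested beyond the GC offsets. With these Shank2 was at 0.21, Shank3 at 0.26 and Dlgap4 at 0.21, against 0.29, 0.27 and 0.24 without them. None of the 3 was called either way with all 6 libraries.

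**Figure D3:**
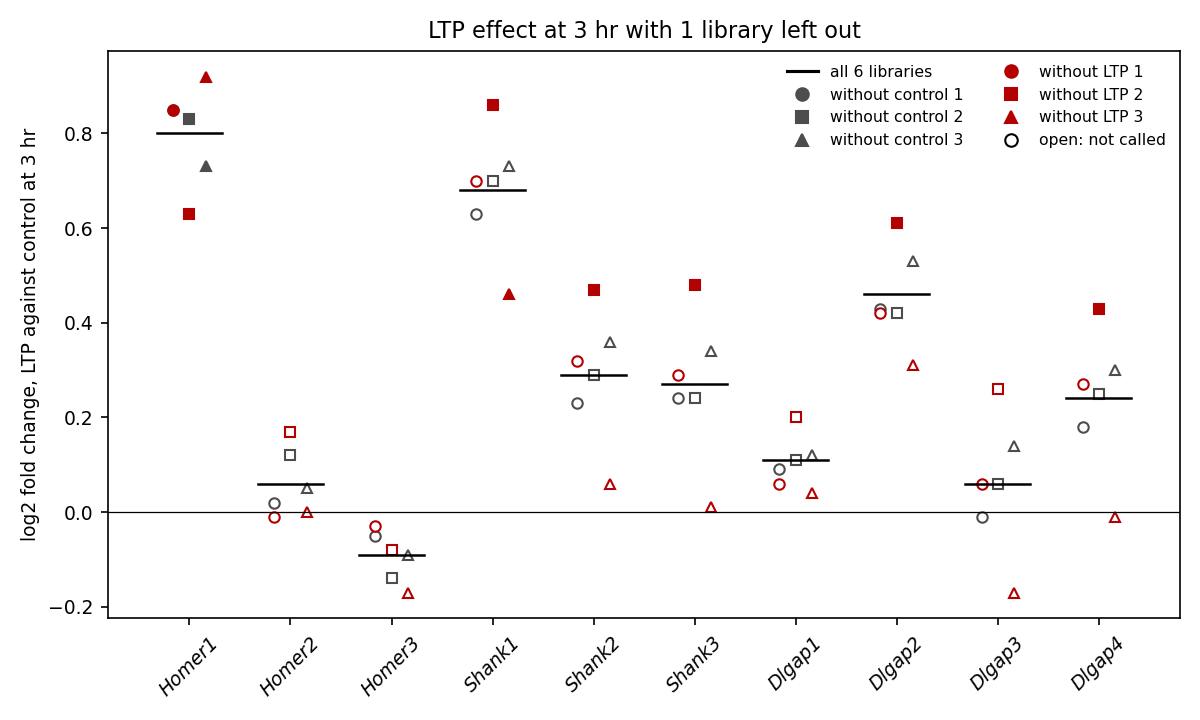
Log2 fold change of LTP against control at 3 hr (y axis) for each gene with all 6 libraries (black line) and with 1 library left out (grey, a control; red, an LTP library; circle, square and triangle for animals 1, 2 and 3; filled where called). All 6 points of Homer1 are filled, between 0.63 and 0.92, whereas Shank1, Shank2, Shank3, Dlgap2, Dlgap3 and Dlgap4 are highest without LTP 2 and lowest without LTP 3.

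Whether the LTP effect itself differed between 3 hr and 1 hr was tested as an interaction. No member passed, and 0.0592% of 18584 genes did (11 genes, edgeR quasi-likelihood test). The difference was 0.41 for Homer1 (SE 0.176, adjusted p = 0.73), 0.44 for Shank1 (SE 0.203, adjusted p = 0.755) and 0.38 for Dlgap2 (SE 0.174, adjusted p = 0.755), and these 3 of the 10 had an unadjusted p under 0.05, as had 6.59% of all genes. DESeq2 called 80 genes and limma-voom 10, and again no member. The 2 effects on Homer1 are thus not shown to differ in size at this depth and number of animals, nor are those on Shank1. The alternatives kept Homer1 between 0.205 and 0.509 and Shank1 between 0.21 and 0.59. Without 3 hr LTP 2, Dlgap2 passed (0.51, adjusted p = 0.098).

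The members of a family were next compared as shares of their family within each library, which do not depend on library scaling. Shank1 made up 33.8%, 35.2% and 33.5% of the summed per-kilobase Shank level in 3 hr controls 1, 2 and 3 and 40.6%, 41.8% and 40.1% in the LTP libraries of the same animals. The share of Shank3 was 35.2% to 37.4% in controls and 31.0% to 33.5% after LTP, and that of Shank2 28.8% to 29.6% and 26.4% to 27.2%. None of these ranges overlapped, although LTP 2 and LTP 3 lay far apart in the level of every Shank. As a ratio of counts within a library, Shank1 to Shank2 was 1.14 ± 0.0265 (SD, n = 3) in 3 hr controls and 1.49 ± 0.0115 in 3 hr LTP slices, and Shank1 to Shank3, which are alike in GC content (61.4% and 62.4%), was 1.07 ± 0.0608 and 1.44 ± 0.0889. The smallest p that an exact permutation test of 3 against 3 libraries can give is 0.1, and no other test of these shares was made. At 1 hr the shares of Shank1 overlapped, 30.6% to 34.6% in the 3 controls, control 2 included, and 32.7% to 38.7% after LTP. A ratio shows unequal change between members and not which of them changed.

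In the Homer family, Homer1 took 53.9% to 57.7% of the summed level in 3 hr controls and 63.8% to 75.6% after LTP, and 56.2% and 57.3% in 1 hr controls 3 and 1 (51.5% in control 2) and 58.8% to 68.2% after LTP at 1 hr. The 3 genes differ in GC content (Homer1 36.9%, Homer2 44.4%, Homer3 60.2%). In 3 hr LTP 1, 2 and 3 the Homer1 share was 68.8%, 75.6% and 63.8%, at GC measures of 0.23, -0.01 and 0.45. In 3 hr controls 1, 2 and 3 it was 57.7%, 57.7% and 53.9%, at 0.13, 0.25 and 0.44. The part of GC content in the shares was not tested. Homer2, a long Homer with a coiled coil, had a share of 15.4% to 18% in 3 hr controls and of 9.3% to 14.9% after LTP, while its CPM ranges overlapped (128 to 147 and 118 to 152). The ratio of Homer1 to Homer2 counts was 3.15 ± 0.354 (SD, n = 3) in 3 hr controls and 5.45 ± 2.01 in 3 hr LTP slices, with all LTP libraries above the controls. In the Dlgap family the share of Dlgap2 was 11% to 11.8% in 3 hr controls and 13.9% to 14.5% after LTP, which do not overlap although its CPM ranges did. Dlgap1 and Dlgap3 shares overlapped between 3 hr LTP and control. The size of a share depends on the exon lengths used, whereas the direction of a difference in a count ratio does not.

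**Figure D4:**
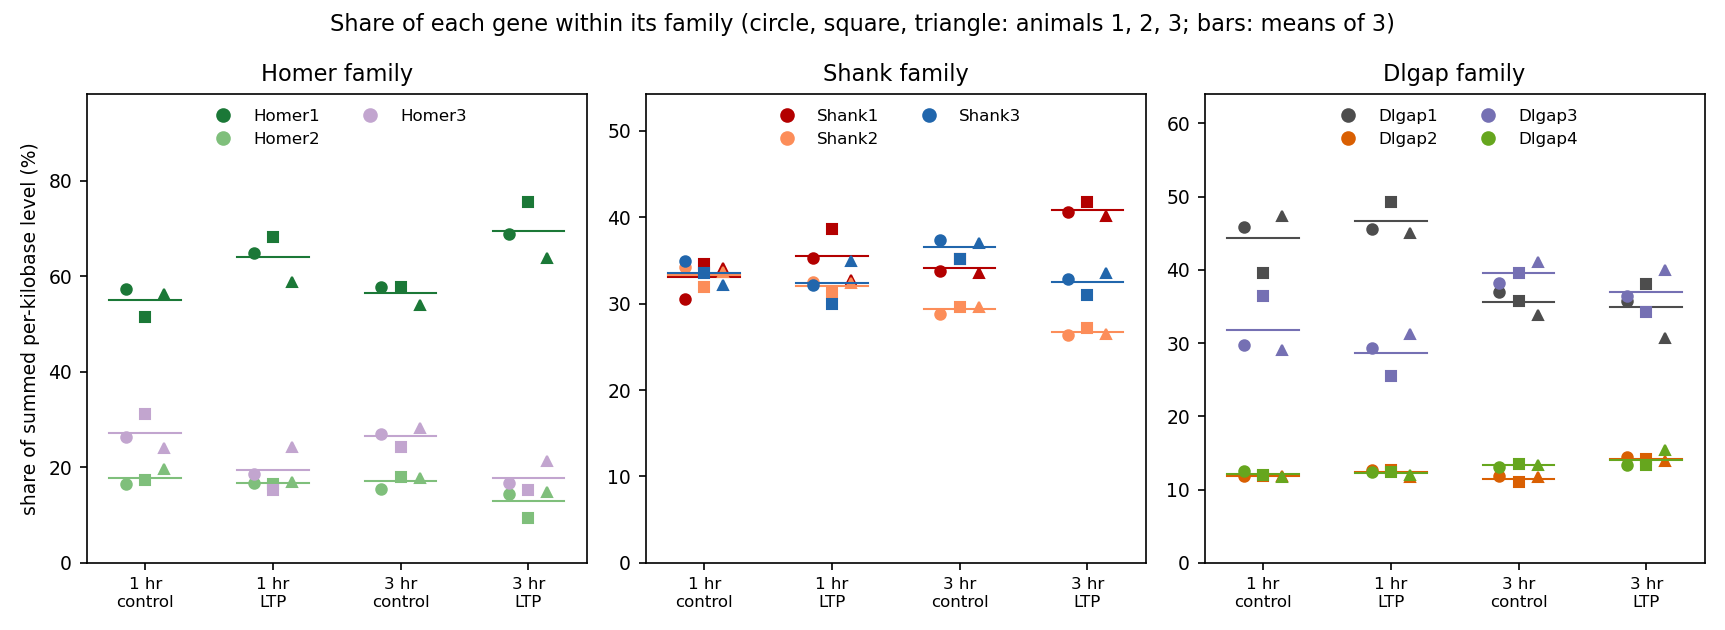
Share of each gene in the summed per-kilobase level of its family (y axis, percent, from 0) by group, with circle, square and triangle for animals 1, 2 and 3 and bars for the mean of 3 libraries, 1 hr control 2 included. Shank1 lies at 40.1% to 41.8% in 3 hr LTP slices, above its 33.5% to 35.2% in 3 hr controls, and Homer1 lies above its controls at both time points.

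Control slices were then compared between 3 hr and 1 hr to see which members differed without LTP, in 1 model of the 4 groups with 11 libraries. Time, animal and the handling of each time point cannot be told apart in this comparison. Shank1 was higher at 3 hr by 0.49 (SE 0.154, adjusted p = 0.0274), Shank3 by 0.53 (SE 0.191, adjusted p = 0.0494) and Dlgap3 by 0.58 (SE 0.192, adjusted p = 0.0348, edgeR quasi-likelihood test). Shank3 was at 106 and 94.4 CPM in 1 hr controls 1 and 3 and at 141, 142 and 160 CPM at 3 hr. Dlgap3 was at 121 and 117 CPM and at 163, 180 and 199 CPM. These 3 of 10 members were called higher where 16.1% of 18584 genes were, and 0 were called lower where 16.8% of genes were (1 lower at an unadjusted p under 0.05, Dlgap1). In 6 members the 3 hr controls lay entirely above the fitted 1 hr controls, as in 31.5% of all genes. Dlgap1 was lower in every 3 hr control, at 623, 643 and 650 CPM against 738 and 752 CPM (log2 fold change -0.25, SE 0.0868, adjusted p = 0.0406, edgeR), but its fold did not reach 1.2.

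The 3 members called are the 3 richest in GC, at 61.4% (Shank1), 62.4% (Shank3) and 63.9% (Dlgap3) of the bases of the longest annotated transcript. The GC measure was higher in every 3 hr library than in every fitted 1 hr library. With offsets per library for GC content and length the differences of all 3 were near 0, at 0.01 for Shank1 (adjusted p = 0.963), 0.00 for Shank3 (0.993) and -0.04 for Dlgap3 (0.772, edgeR quasi-likelihood test). The GC measure separates the fitted libraries by time point, so the offsets take out any time difference that genes of like GC content share. The source of such a difference was not tested. With the same offsets 3 other members were called, Homer1 higher (0.27, adjusted p = 0.0897), and Homer3 (-0.29, 0.0812) and Dlgap1 (-0.28, 0.00951) lower. Over all genes 11.6% were higher and 13.6% lower with these offsets, so that 3 of 10 members is near the 25.2% of genes called. The outlier 1 hr control 2, whose GC measure was 0.15, had 145 CPM of Shank1, 123 of Shank3 and 168 of Dlgap3, so that its Shank1 and Dlgap3 were nearer to the 3 hr controls than to the other 1 hr controls. With it in the fit Shank1 (0.38, adjusted p = 0.0699) and Shank3 (0.46, 0.0573) stayed called and Dlgap3 (0.42, 0.105) did not. Without 1 hr control 1 only Shank3 was called, without 1 hr control 3 only Shank1, and without 3 hr control 3 Shank1 and Dlgap3. In the first 2 of these fits the 1 hr control arm is 1 library, assumed to vary like the other groups, and the log2 fold changes of the 3 members stayed between 0.478 and 0.658.

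The same comparison was made in LTP slices. Shank1 was higher at 3 hr by 0.93 (SE 0.136, adjusted p = 0.000251, edgeR quasi-likelihood test), from 136, 132 and 123 CPM at 1 hr to 245, 190 and 321 CPM at 3 hr. This was the greatest difference of any member in the main fits, which have no GC content and length offsets. Homer1 was higher by 0.43 (SE 0.118, adjusted p = 0.011), Shank2 by 0.47, Shank3 by 0.75, Dlgap2 by 0.48, Dlgap3 by 0.65 and Dlgap4 by 0.49, with adjusted p of at most 0.0208. These are 7 of 10 members called higher and 0 lower (0 lower at an unadjusted p under 0.05), where 18.6% of 18584 genes were higher and 17.3% lower, and the median of the members was 0.47 against 0.00 for all genes. In 5 members all 3 hr LTP libraries lay above all 1 hr LTP libraries, as in 23.6% of genes. Homer2 (-0.10), Homer3 (0.16) and Dlgap1 (-0.16) did not pass.

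With the GC content and length offsets 4 of 10 members were called in LTP slices, where 27% of all genes were, 13.6% higher and 13.4% lower. Homer1 (0.57, adjusted p = 0.00052), Shank1 (0.41, 0.00174) and Dlgap2 (0.27, 0.0191) stayed higher, and Dlgap1 was lower (-0.29, 0.0033, edgeR quasi-likelihood test). Shank2 (0.21), Shank3 (0.20), Dlgap3 (0.11) and Dlgap4 (0.07) were no longer called. Shank1 and Dlgap2 passed in all 19 alternatives of this comparison, between 0.41 and 1.10 for Shank1 and between 0.27 and 0.64 for Dlgap2. Homer1 lost its call without 3 hr LTP 2 (0.255, a fold just under 1.2), and Shank2 (0.247) and Dlgap4 (0.248) lost theirs without 3 hr LTP 3. Without 1 hr LTP 3, Homer3 was called higher (0.379). Cell type markers moved with the time points too. Of 5 microglial markers 4 were called lower at 3 hr in controls and 4 in LTP slices (summed level 191 to 197 CPM in 1 hr controls 1 and 3 and 125 to 142 CPM in 3 hr controls), and of 5 oligodendrocyte markers 3 were called higher in each. Of 5 excitatory neuron markers 2 were called higher and 1 lower in LTP slices (median 0.28, summed level 2680 to 3200 CPM at 1 hr and 2700 to 4160 CPM at 3 hr), and 0 higher and 1 lower in controls (median 0.08). Of 5 endothelial and mural markers 3 were called lower in controls (median -0.32), and 1 was higher and 1 lower in LTP slices. Of the markers of inhibitory neurons, astrocytes and dentate granule cells, at most 2 of a type were called in either comparison. The part of these shifts in the members' values was not tested.

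**Figure D5:**
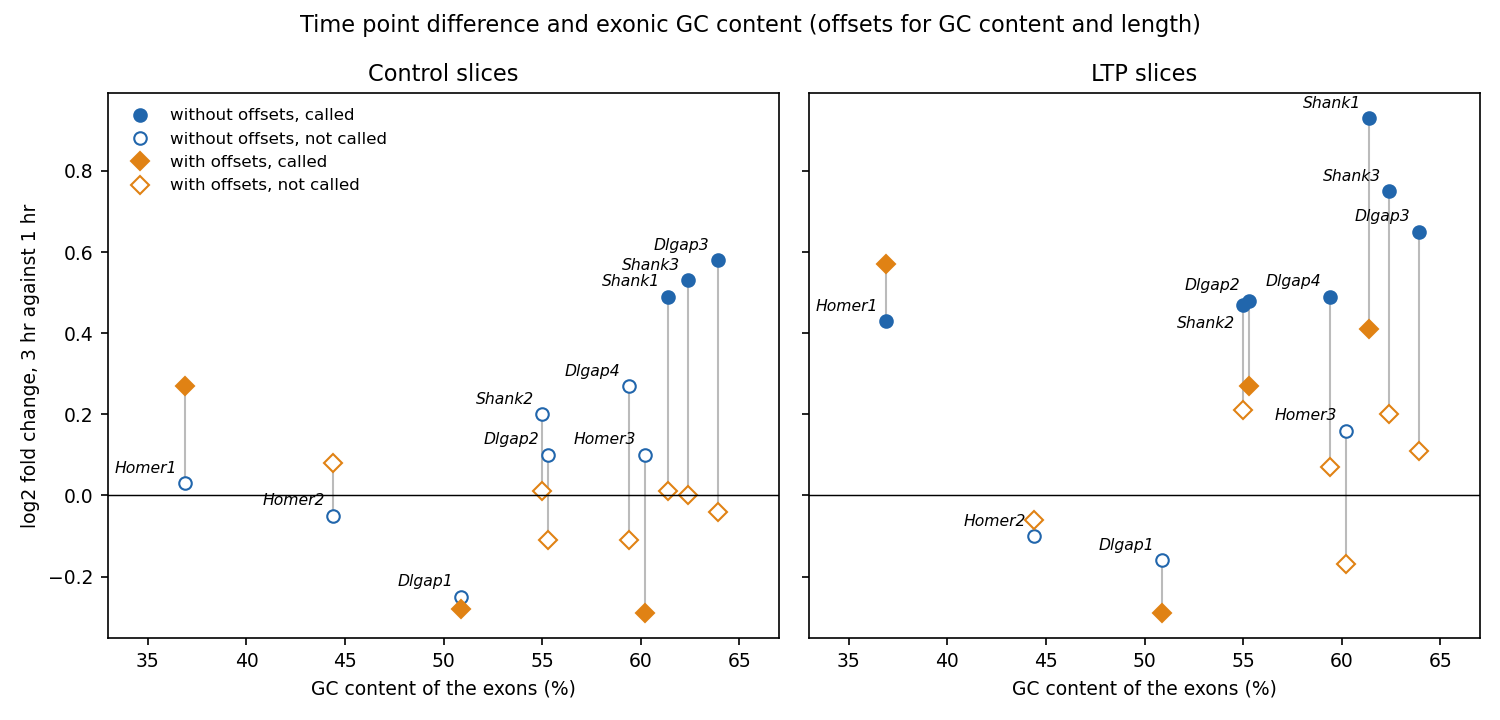
Log2 fold change of 3 hr against 1 hr (y axis) for the 10 genes by the GC content of their longest annotated transcript (x axis, percent, where the label names exons), in control slices (left) and LTP slices (right), without offsets (blue circles) and with offsets for GC content and length (orange diamonds), filled where called. In controls Shank1, Shank3 and Dlgap3, at 61.4% to 63.9% GC, drop from 0.49 to 0.58 to between -0.04 and 0.01 with the offsets, and in LTP slices Homer1, Shank1 and Dlgap2 stay above 0.25.

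The binding partners of the scaffolds were followed in 3 lists. Of 10 Homer ligands (among them Grm5, Itpr1, Ryr1, Ryr2, Trpc1, Dnm3, Agap2 and Dbn1), none was called after LTP at 1 hr or 3 hr, with medians of 0.06 and 0.10. At an unadjusted p under 0.05 there were 0 of them at 1 hr and 2 at 3 hr, where 6.71% and 20.2% of all genes were. Of 10 Shank partners, 0 were called at 1 hr (0 at an unadjusted p under 0.05, edgeR) and 1 at 3 hr, the cortactin-binding protein gene Cttnbp2, which was higher by 0.38 (SE 0.0625, adjusted p = 0.0176, edgeR). Baiap2 likewise missed only the fold minimum at 3 hr (0.25, adjusted p = 0.0766, edgeR). Of 16 genes of the PSD-95 family and its other partners, 0 were called at 1 hr (1 at an unadjusted p under 0.05) and 7 were higher at 3 hr, where 5.07% of all genes were. Among the 7 were Dlg2 (PSD-93, 0.28), Lrrc7 (densin, 0.34), Nos1 (neuronal nitric oxide synthase, 0.32), Iqsec2 (an Arf exchange factor, 0.53), and the Rap regulators Sipa1l1 (0.51) and Sipa1l3 (0.71), and the 7 had adjusted p of 0.00544 to 0.0706 in the edgeR quasi-likelihood test. Dlg4, which encodes PSD-95, was not called (0.13, SE 0.125, adjusted p = 0.61). DESeq2 and limma-voom too called none of the 36 partners at 1 hr. The 8 partner calls at 3 hr fell to between 1 and 3 when control 1, control 2, control 3 or LTP 1 was left out, were 7 without LTP 3 and 16 without LTP 2, and were 6 with the GC content and length offsets. They were 8 with limma-voom, 9 with DESeq2 and 10 with animal as a block.

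Between the time points partners went both ways. In controls 5 of the 36 were called higher and 5 lower, shares no larger than the 16.1% and 16.8% of all genes. There the Homer ligand Agap2 (PIKE, 0.40), the Shank partners Arhgef7 (beta-PIX, 0.34) and Adgrl1 (latrophilin, 0.34), and Begain (0.44) and Dynll2 (a dynein light chain that binds Dlgap1, 0.90) were higher at 3 hr. Dnm3 (dynamin, -0.36), Abi1 (a WAVE complex subunit, -0.32), Dlg2 (-0.36), Lrrc7 (-0.31) and Dynll1 (the other dynein light chain, -0.47) were lower. In LTP slices 14 of the 36 were called higher and 4 lower, where 18.6% and 17.3% of all genes were. Here 2 of 10 Homer ligands were higher (Ryr1 0.61, Agap2 0.43) and 2 lower (Grm5 -0.29, Dnm3 -0.27). Of the 10 Shank partners Arhgef7 (0.40), Baiap2 (IRSp53, 0.45) and Adgrl1 (0.56) were higher and Abi1 (-0.37) lower. Of the 16 genes of the PSD-95 list 9 were higher, from Sipa1l1 (0.31) to Sipa1l3 (0.79), with Dlg4 (0.36), Begain (0.39), Dynll2 (0.71), Iqsec2 (0.60), Sipa1l2 (0.47) and Nos1 (0.43) among those between, and Dynll1 (-0.48) was lower. With the GC content and length offsets the 18 partner calls in LTP slices became 8 and the 10 in controls 9, where 27% and 25.2% of all genes were called.

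The pattern of Homer1 over the 12 libraries was set beside that of every other gene. The root mean square difference between mean-centred log2 CPM profiles was 0.352 for Dlgap2, the nearest member, and 0.542 for Dlgap3, the farthest, where the profile of Homer1 itself had a root mean square of 0.378. Among the 14103 genes that averaged 1 CPM or more, Dlgap2 was 1838th nearest. The 3 nearest were Crem (0.146), which encodes a cAMP-responsive transcription factor of the CREB family, and the predicted genes Gm43517 (0.15) and Gm29488 (0.153). Crem had log2 fold changes after LTP of 0.22 at 1 hr (adjusted p = 0.7) and 0.57 at 3 hr (adjusted p = 0.0216, edgeR). Likeness over 12 libraries of 4 groups is a description, and the libraries share depth and treatment.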

How the data were processed

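The authors deposited 2 tables of raw counts per gene, 1 per time point, which were used as deposited. Per the study's methods, TruSeq stranded total RNA libraries depleted of ribosomal RNA were mapped to the GRCm38/mm10 genome by STAR and counted with Bioconductor packages. Whether strand was used is not stated, and the labels name DESeq2. Of 41091 IDs, 40217 matched GENCODE M21, whose versions are newer than the IDs, so lengths may differ from those the authors used.

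Counts were tested with edgeR 4.0.16 in R 4.3.3 (filterByExpr, TMM, quasi-likelihood F test, Benjamini-Hochberg over all genes tested), and called below an adjusted p of 0.1 when the fold change exceeded 1.2, with no fold minimum for the interaction. 1 hr control 2 was left out as in the study. DESeq2 1.42.0, limma 3.58.1 (voom), other scalings and filters, an animal block, and offsets from splines (5 degrees of freedom) on GC content and length were alternatives. GC content was that of the longest annotated transcript of a gene, which for Homer1 is Homer1-204 (5713 bases), and length was that of all exons. Steps were tested on simulated data. CPM values are TMM-scaled, and ratios within animals used a pseudocount of 0.1 CPM. Depth was 37118382 to 50815001 counts, and a floor of 3 counts was at most 0.0808 CPM. Replicates differed by more than counting error.

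Genes named are all members, list members called in a comparison, the 3 genes most like Homer1, and Arc and Prox1 as checks. Names outside this rule (the Homer ligands Itpr1, Ryr2, Trpc1 and Dbn1, called in no comparison) were added after their values were seen. Some partner genes are counted in their lists but not reported by name here. The members and lists were chosen with earlier results of these data known. The labels pair LTP and control slices by animal. Deviations of paired libraries correlated at -0.013, -0.177 and 0.076 for animals 1, 2 and 3 at 1 hr and at 0.056, -0.011 and 0.246 at 3 hr.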

Additional observations from a re-analysis of the deposited data

Results flagged for a closer look

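1 hr control 2, the library outside the comparisons, lay above all 5 other 1 hr libraries, LTP included, for 7 of the 10 members, and below all 5 for Homer1 and Dlgap1. The library stood apart over all genes, lying above the other 5 for 27% of 18240 genes and below them for 24.6%. It held 61.7 CPM of Homer3, 145 of Shank1, 136 of Shank2, 123 of Shank3, 74 of Dlgap2, 168 of Dlgap3 and 104 of Dlgap4. For Homer1, at 356 CPM, it was instead the lowest of all 12 libraries. Its GC measure of 0.15 was above those of the other 1 hr libraries (-0.55 to -0.23), and the part of this in the 7 values was not tested.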

How the results depend on the processing

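Over the 50 member results, 852 of 950 alternatives kept direction and side of the threshold, 23 lost a call, 21 gained one and 54 changed sign. The sign changes were in members not called without the alternative, except Dlgap3 between controls with GC offsets. With the same offsets Homer3 between controls changed sign and was called lower (-0.29, adjusted p = 0.0812, edgeR). The cause was not tested unless stated.

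Genes called after LTP at 1 hr were 140, but 347 with no filter (more genes tested) and 316 with the replicate block and GC offsets, and 69 to 344 with 1 library left out (69 without control 1, which leaves 1 control library assumed to vary like the LTP libraries, and 344 without LTP 3). At 3 hr they were 1155, 1775 with the replicate block and GC offsets, and 228 to 2170 with 1 library left out (228 without control 2, 2170 without LTP 2). The interaction gave 11 genes, 80 with DESeq2, 102 with no filter, 29 with GC offsets, and 1 to 67 with 1 library left out (1 without 1 hr control 3, again with 1 control library left, and 67 without 3 hr LTP 2). The replicate block alone gave 206 genes at 1 hr, 1662 at 3 hr and 13 for the interaction, and changed no member call except Dlgap2 at 3 hr.

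Members called at 1 hr were 1, 0 in 1 model of the 4 groups, and 0 to 2 with 1 library left out. At 3 hr they were 2, 1 at an adjusted p under 0.05, and 1 to 6 with 1 library left out. Between controls they were 3 (1 to 4), between LTP slices 7 (4 with GC offsets), and for the interaction 0 (0 to 1).

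Sign changes under GC offsets were, at 1 hr, Dlgap1 -0.04 (-0.021 with the replicate block) and Dlgap3 0.003 (0.056 with the block), at 3 hr, Homer2 -0.07 (-0.075 with the block) and Dlgap1 -0.054 (-0.056), between controls, Homer2 0.081, Homer3 -0.293, Dlgap2 -0.107, Dlgap3 -0.04 and Dlgap4 -0.11, between LTP slices, Homer3 -0.172, and in the interaction, Dlgap1 -0.01. With 1 hr control 2 included, Shank2 was -0.037, Shank3 -0.041 and Dlgap4 -0.03 at 1 hr (-0.037, -0.04 and -0.028 with the replicate block), and Homer2 0.022 between controls. The replicate block alone gave Dlgap3 0.125 at 1 hr, and Homer3 -0.084 and Dlgap3 -0.091 in the interaction.

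With 1 library left out, the ranges of members that changed sign were, at 1 hr, Homer2 -0.016 to 0.263, Homer3 -0.331 to 0.005, Shank2 -0.013 to 0.099, Shank3 -0.02 to 0.161, Dlgap1 -0.003 to 0.038, Dlgap3 -0.117 to 0.126 and Dlgap4 -0.034 to 0.103. At 3 hr they were Homer2 -0.006 to 0.175, Dlgap3 -0.174 to 0.257 and Dlgap4 -0.011 to 0.426. For Homer2 they were -0.137 to 0.138 between controls and -0.157 to 0.017 between LTP slices. In the interaction they were Homer2 -0.225 to 0.051, Homer3 -0.084 to 0.257, Shank3 -0.057 to 0.401, Dlgap3 -0.17 to 0.245 and Dlgap4 -0.047 to 0.375.

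With the longest transcript as length, mean CPM per kilobase was 91.8 for Homer1, 12.7 for Homer2, 20.4 for Homer3, 97.8 for Dlgap1, 16.9 for Dlgap2 and 22.4 for Dlgap4.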
